A study of Mus musculus with 6 samples.

Results

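The matrix metalloproteinases (MMP), their tissue inhibitors (TIMP), the ADAM proteases and the ADAMTS proteases with their ADAMTS-like relatives (ADAMTSL) were examined in liver RNA-seq of SHMT2-deficient mice. The genes were taken by symbol from the deposited count table, and those with at least 10 counts in at least 3 of the 6 libraries were kept. Of 49671 gene IDs, 84 carried such a symbol and 54 passed, which are 16 MMP, 4 TIMP, 15 ADAM, 14 ADAMTS and 5 ADAMTSL genes. The last gene to pass was close to the limit, with 11, 2 and 10 counts of *Adam2* in the WT libraries and 13, 5 and 9 in the KO libraries. Just below it, *Adamts3* had 19, 5 and 17 counts in the WT and 4, 9 and 5 in the KO libraries. Of the 30 genes below the limit, 11 had no count in any library.

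The samples were livers of male C57BL/6J mice, 3 labelled SHMT2 WT and 3 labelled SHMT2 KO. Going by the study's methods, the WT mice are read here as SHMT2fl/fl animals, whose *Shmt2* gene is flanked by loxP sites, and the KO mice as SHMT2HKO animals, which carry the same floxed gene and a Cre gene driven by the Albumin promoter. The Albumin promoter is known for its activity in hepatocytes, and loss of the gene was not measured by cell type here. All 6 mice were given the AMLN diet, a feed high in fat, fructose and cholesterol, for 18 weeks starting at 4 weeks of age, so no mouse on chow enters the comparison.

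MMPs are zinc-dependent proteases that cut collagens, elastin, proteoglycans and cell-surface proteins, and TIMPs block them by filling the active site. ADAM proteases sit in the membrane and release the outer parts of growth factors, cytokines and receptors, while ADAMTS proteases are secreted and process procollagens, proteoglycans or von Willebrand factor. In a fatty, fibrotic liver these genes are known from stellate cells and portal fibroblasts, macrophages, bile duct cells and endothelium more than from hepatocytes.

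Before any comparison, 1 library stood apart. The library of KO mouse 1 held 182 genes above 3 CPM (the count scaled to library size with TMM factors and a fixed total) at more than 6 times the highest of the other 5 libraries, against 0 to 6 such genes in each other library. Among them were genes of placenta, whose 8 markers summed to 192 CPM in this library and to 0 in the other 5, and of brain, whose 8 markers summed to 146 CPM against 4.31 to 4.96. None of the 54 genes met this criterion, and each test across genes, and the sums and shares per kb, were also computed without this mouse. Counts on genes ranged from 23090837 to 34089722 per library. *Shmt2* was at 99.2 ± 8.51 CPM (SD, n = 3) in WT and 24.2 ± 4.51 CPM (n = 3) in KO livers (log2 fold change -2.04, adjusted p = 0.000639). The 7 hepatocyte markers were detected in all libraries and summed to 49931 to 61593 CPM in WT and 65194 to 96551 CPM in KO livers.

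The proteases and their inhibitors were mostly lower in the SHMT2HKO livers. Of the 52 genes that could be tested, 25 fell, 2 rose (*Adamts13* and *Adam9*) and 25 did not pass an adjusted p of 0.05 in edgeR's quasi-likelihood test. Over all 16089 genes tested, 16.5% fell and 12.5% rose. In 31 of the 52 genes all KO mice were below all WT mice, which was so in 25.0% of all genes, and in 3 genes (*Adamts13*, *Adam9* and *Adam23*) all KO mice were above, against 21.9% of all genes. The median log2 fold change was -0.99 for the 52 genes and 0.03 for all genes, and 26 of the 52 but 14.8% of all genes had a log2 fold change of -1 or lower. In bulk tissue, fewer cells of a type and less RNA per cell cannot be told apart. Without KO mouse 1, 26 of the genes fell, with 24 of the 25 kept (17.4% of all genes fell). *Adamtsl5* was lost (adjusted p = 0.0897), *Adam22* and *Timp4* were gained, and the sign of the fold change turned for *Adam11*, *Adam22*, *Mmp24* and *Timp4*. The median log2 fold change was then -0.97.

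The filter on counts favours genes that are high in WT livers. The 10 counts were reached in all 6 libraries by 40 genes, in all WT and 1 or 2 KO libraries by 7, and in fewer than 3 WT libraries by 3 (*Adam2*, *Adam4* and *Timp4*). The remaining 4 (*Mmp3*, *Mmp25*, *Adam32* and *Adamts8*) reached it in all WT libraries and in no KO library, so a difference was built into their choice. Leaving these out, 23 of 49 tested genes fell, and in 28 of the 49 all KO mice were below all WT mice. The counts by family below still include *Mmp3*, *Mmp25* and *Adam32*, and the promoter counts *Mmp3* and *Mmp25*. *Adam2* and *Adamts8* were too low to be tested.

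**Figure D1:**
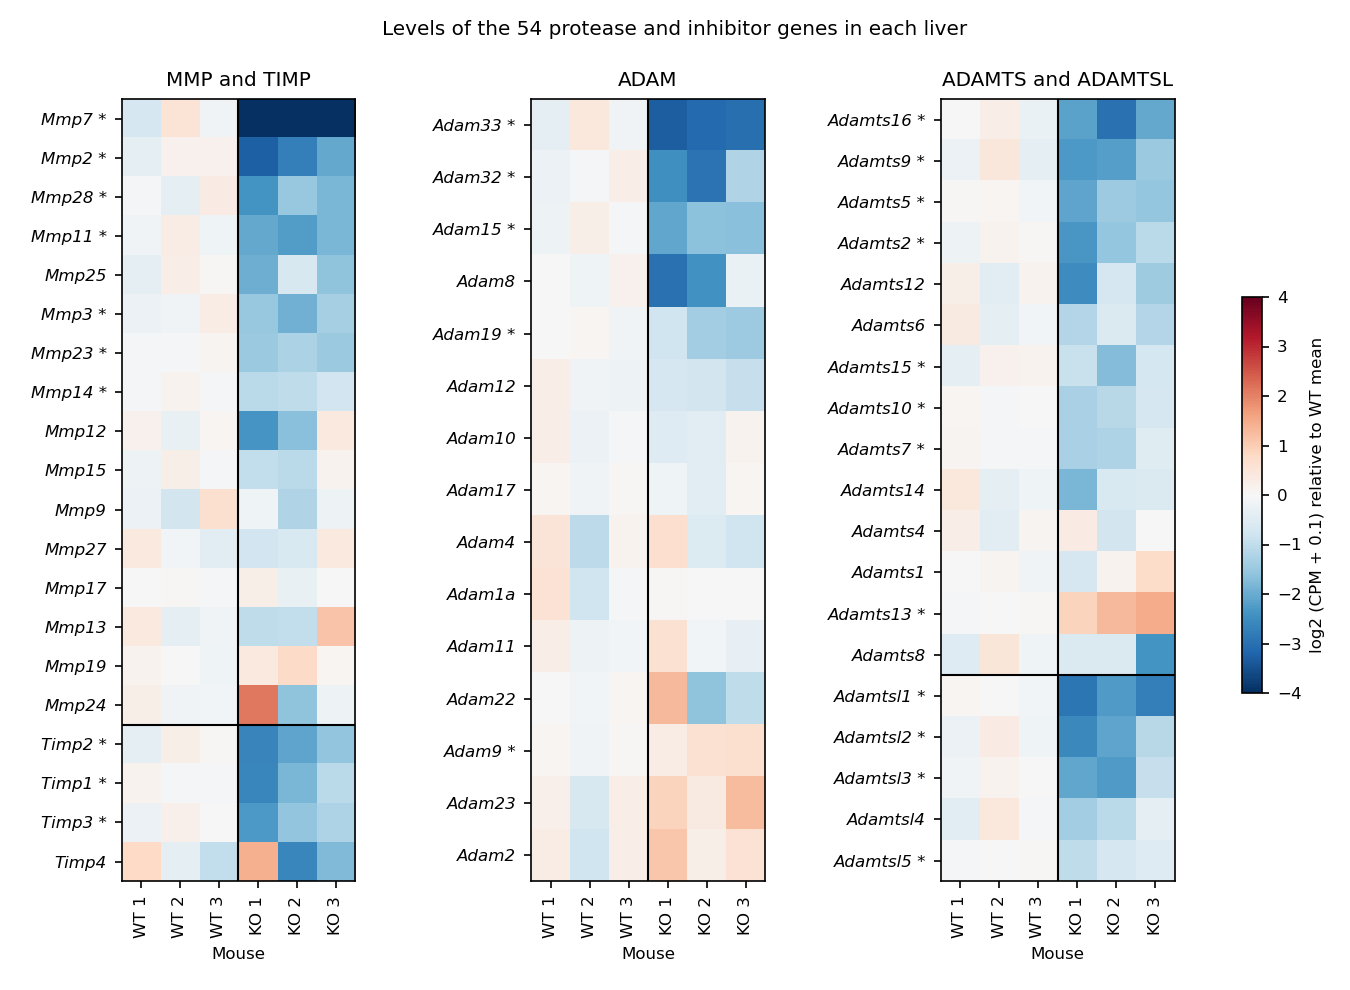
Level of each of the 54 genes in each mouse, as log2 (CPM + 0.1) relative to the mean of the 3 WT mice (blue lower, red higher), grouped by family. Asterisks mark the 27 genes with an adjusted p under 0.05. Most KO columns are blue, KO mouse 3 is paler than the other KO mice in many rows, and *Adamts13*, *Adam9* and *Adam23* are red in all 3 KO mice.

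Among the MMPs, 7 of 16 fell and none rose, against 16.5% and 12.5% of all genes. Their median log2 fold change was -0.83. Of the 7, *Mmp3* passed the count filter through the WT libraries only. *Mmp7* (ENSMUSG00000018623, chr9:7692090-7699585, plus strand), or matrilysin, a small secreted protease known from bile duct epithelium, changed most. It was at 45.1, 106 and 66.1 CPM in the WT mice and at 1.74, 2.08 and 3.82 CPM in the KO mice. The highest KO mouse was thus far below the lowest WT mouse, and the means differed 28.4-fold (log2 fold change -4.81, SE 0.42, adjusted p = 0.000871). Per kb of exon, *Mmp7* held 42.3% ± 8.29 (SD, n = 3) of the summed MMP level in WT livers and 4.24% ± 0.802 (n = 3) in KO livers. All 8 bile duct markers fell with it, with log2 fold changes from -3.99 to -1.17. Their sum was 1003 to 1249 CPM in WT and 150.5 to 267 CPM in KO livers, but *Spp1*, which macrophages also express, made up 69.3% to 83.0% of it in each mouse. Without *Spp1* the other 7 summed to 180 to 304 CPM in WT and 46.2 to 51.8 CPM in KO livers. Their part in the fall of *Mmp7* was not tested.

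*Mmp2* (gelatinase A, ENSMUSG00000031740, chr8:92827291-92853420, plus strand), which cuts denatured and basement membrane collagen and is known from stellate cells, was at 51.2, 75.6 and 75.1 CPM in WT and 6.88, 10.1 and 16.3 CPM in KO mice. The groups did not overlap, and the means differed 6.06-fold (log2 fold change -2.59, SE 0.31, adjusted p = 0.00161). *Mmp14* (MT1-MMP), the membrane protease that activates pro-MMP2, was at 87.0, 98.6 and 85.3 CPM in WT and 42.7, 45.0 and 53.3 CPM in KO mice. Its fall was smaller, to 47.0 ± 5.57 from 90.3 ± 7.26 CPM (SD, n = 3 each, log2 fold change -0.94, SE 0.13, adjusted p = 0.00222). *Mmp9*, the other gelatinase, was at most at 1.33 CPM in a mouse and did not pass (log2 fold change -0.50, SE 0.52).

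The lower expressed members that fell were *Mmp11* and *Mmp3*, both stromelysins, *Mmp28*, or epilysin, and *Mmp23*, a protease held in the membrane by its N-terminal part. *Mmp11* went from 6.08 ± 1.15 to 1.42 ± 0.220 CPM (SD, n = 3 each), *Mmp23* from 14.6 ± 0.872 to 5.45 ± 0.456 CPM and *Mmp28* from 1.78 ± 0.446 to 0.415 ± 0.152 CPM. All KO mice were below all WT mice in each of these genes. *Mmp3* had only 36, 25 and 50 counts in WT and 7, 4 and 9 counts in KO libraries (log2 fold change -1.84, SE 0.40, adjusted p = 0.0120, and 0.0649 without WT mouse 3). *Mmp25*, a protease anchored by a lipid and known from neutrophils, had a similar estimate from 1 to 18 counts per library, and did not pass (log2 fold change -1.87, SE 0.65, adjusted p = 0.0614). Part of the exons of *Mmp11* (5.58%) lies over those of *Chchd10* on the other strand, which was at 397 CPM in WT and 583 CPM in KO livers.

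*Mmp19*, a secreted MMP, behaved differently from the members above. *Mmp15* (MT2-MMP), a membrane protease, did not pass with all mice, but passed as lower without KO mouse 3 (log2 fold change -1.05, adjusted p = 0.00237). *Mmp19* was at 45.3, 41.7 and 36.5 CPM in WT and 53.7, 69.6 and 43.9 CPM in KO mice. Its groups overlapped, and its log2 fold change of 0.44 (SE 0.18) did not pass (adjusted p = 0.0993). Without KO mouse 3 it passed as higher (log2 fold change 0.56, adjusted p = 0.0275), and it turned to -0.01 without TMM scaling and to -0.36 with ERCC scaling, where the median of all genes moved from 0.03 to -0.40 and -0.69. *Mmp19* and *Mmp15* made up 30.5% ± 11.2 and 30.7% ± 8.28 (SD, n = 3) of the summed MMP level per kb in KO livers, where this sum was lower. In WT livers they made up 7.82% ± 2.31 and 16.4% ± 1.20 (28.7% and 32.0% in KO livers without KO mouse 1). *Mmp17* and *Mmp24*, both membrane-type, and *Mmp27* did not pass either. *Mmp24*, known from the nervous system, was at 2.55 CPM in KO mouse 1, the library with brain genes, and at 0.101 to 0.612 CPM in the other 5.

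A block of 10 MMP genes stands on chromosome 9 (GRCm38, from *Mmp13* at 7272514 to the end of *Mmp7* at 7699585), and 5 of these were expressed. In order along the block the log2 fold changes were 0.12 for *Mmp13*, -0.72 for *Mmp12*, -1.84 for *Mmp3*, -0.24 for *Mmp27* and -4.81 for *Mmp7*. *Mmp7* passed, as did *Mmp3*, which was kept through its WT counts only. The differences between neighbours were not tested, and the values of *Mmp12* and *Mmp13* rest on KO mouse 3. Without that mouse *Mmp12* was at -2.03 (adjusted p = 0.00173), close to *Mmp3* at -2.06, and *Mmp13* was at -1.08 (adjusted p = 0.0519). The other 5 (*Mmp1a*, *Mmp1b*, *Mmp8*, *Mmp10* and *Mmp20*) were below the count limit.

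Many MMP promoters are known to carry a site for AP-1, the Fos and Jun factor that answers growth factor and inflammatory signals. RefSeq start windows of 300 bases (250 before and 50 after the start, GRCm38.p6) were available for 34 of the 54 genes and were searched for TGACTCA on both strands, which reads TGAGTCA on the reverse strand. It was found in 5 of these 34 genes, against 5.95% of 27025 genes with such a window. Within the MMPs it was present in 4 of 12, all of them in the chromosome 9 block. The stretches around the site are shown 5′ to 3′ with the 7 letters in capitals, because these 4 MMP genes share the site while their log2 fold changes with all mice ran from -4.81 to 0.12. All lie on the plus strand before a RefSeq start, and the one of *Mmp12* falls within an intron of the longer annotated gene.
*Mmp7*, chr9:7691992-7692068, log2 fold change -4.81: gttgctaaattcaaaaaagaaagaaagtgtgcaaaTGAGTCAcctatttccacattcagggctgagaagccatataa
*Mmp3*, chr9:7445741-7445817, log2 fold change -1.84: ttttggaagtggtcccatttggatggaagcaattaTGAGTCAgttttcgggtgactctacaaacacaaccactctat
*Mmp12*, chr9:7347295-7347371, log2 fold change -0.72: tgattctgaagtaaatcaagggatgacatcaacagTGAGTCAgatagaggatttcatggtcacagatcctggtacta
*Mmp13*, chr9:7272444-7272513, log2 fold change 0.12: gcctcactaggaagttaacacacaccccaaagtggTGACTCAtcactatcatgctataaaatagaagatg
*Adam19*, chr11:46055818-46055894, log2 fold change -1.20: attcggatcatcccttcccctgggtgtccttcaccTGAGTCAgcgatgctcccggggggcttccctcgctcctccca
The site starts 63, 46, 44 and 35 bases before the start in the 4 MMP genes and 131 bases before it in *Adam19*. It was present in 3 of 16 genes that fell and in 2 of 18 that did not. Of the 3, *Mmp3* was kept through its WT counts only. A match is a run of letters and was not linked to binding here.

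Of the 4 TIMP genes, 3 fell, against 16.5% of all genes. *Timp2* (ENSMUSG00000017466, chr11:118301069-118355740, minus strand), which inhibits MMP2 and also links it to MMP14 during activation, was the most abundant TIMP per kb. It was at 123, 186 and 165 CPM in WT and 25.5, 36.8 and 53.1 CPM in KO mice. The means differed 4.10-fold (log2 fold change -2.04, SE 0.28, adjusted p = 0.00223). *Timp3*, a matrix-bound inhibitor that also blocks ADAM17, was at 78.1, 105 and 92.4 CPM in WT and 18.7, 30.6 and 38.9 CPM in KO mice (log2 fold change -1.64, SE 0.25, adjusted p = 0.00344). *Timp1*, a secreted inhibitor used as a marker of liver fibrosis, was at 9.93, 8.65 and 8.48 CPM in WT and 1.40, 2.48 and 4.25 CPM in KO mice (log2 fold change -1.73, SE 0.35, adjusted p = 0.00944). In all of these the KO mice were below the WT mice, with KO mouse 1 lowest and KO mouse 3 highest. Exons of *Timp3* lie over those of *Syn3* on the other strand for 21.3% of their length, and *Syn3* was at 0.892 CPM in WT and 0.910 CPM in KO livers.

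*Timp4*, known from heart and brain, had 39, 10 and 8 counts in WT and 36, 0 and 2 counts in KO libraries. Its level in KO mouse 1, the library with brain and placenta genes, was 1.53 CPM, above every WT mouse. The log2 fold change was 0.06 (SE 1.18) with this mouse and -3.45 without it (adjusted p = 0.0475). A count of 0 in KO mouse 2 allows up to 3 counts, or 0.152 CPM.

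Summed per kb of exon, both MMP and TIMP levels were lower in KO livers. The MMP sum went from 155 ± 36.1 to 54.6 ± 13.1 and the TIMP sum from 62.0 ± 9.04 to 16.6 ± 6.29 CPM per kb (SD, n = 3 each). *Mmp7* alone went from 67.7 to 2.38 CPM per kb, so a large part of the MMP fall lay in this gene. The MMP sum without *Mmp7* was not computed. The ratio of the sums, which does not depend on library scaling, was 2.34, 2.76 and 2.36 in WT and 4.16, 3.13 and 2.99 in KO mice, without overlap. Without KO mouse 1 the KO means were 59.7 for the MMP sum, 19.6 for the TIMP sum and 3.06 for their ratio. Of 6 single pairs, 4 did not overlap between the groups, but how often other pairs of genes do so was not computed. Each ratio is over a TIMP gene that itself fell. *Mmp14* over *Timp2* was 0.383 ± 0.0696 in WT and 0.850 ± 0.224 in KO livers, *Adam17* over *Timp3* was 0.304 ± 0.0658 and 0.897 ± 0.347, and *Mmp2* over *Timp2* was 0.493 ± 0.0300 and 0.329 ± 0.0235 (SD, n = 3 each). *Mmp7* over *Timp1* was 6.80 ± 3.20 in WT and 0.825 ± 0.182 in KO livers (SD, n = 3 each). Without KO mouse 1 the KO means of these 4 ratios, in the order given, were 0.728, 0.698, 0.337 and 0.721. The groups overlapped for *Mmp12* over *Timp1* (0.284 to 0.379 in WT, 0.378 to 0.935 in KO) and for *Mmp9* over *Timp1* (0.0131 to 0.0394 in WT, 0.0307 to 0.129 in KO). An exact permutation test of 3 against 3 mice cannot go below 0.1.

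**Figure D2:**
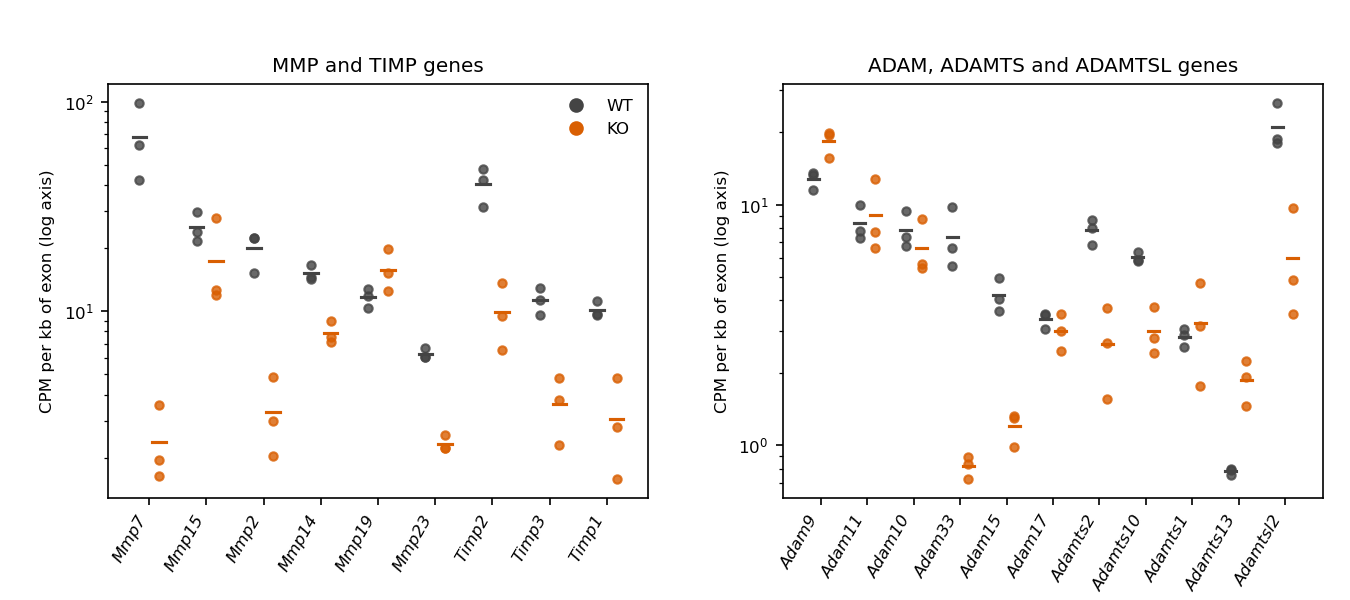
Level in CPM per kb of exon (log axis) of the more abundant MMP and TIMP genes (left) and ADAM, ADAMTS and ADAMTSL genes (right). Each point is a mouse and each bar a mean of 3 mice (grey WT, orange KO). *Mmp7* falls from the top of the left panel to near its bottom, *Mmp15* and *Mmp19* overlap between the groups, and *Adam9* and *Adamts13* are higher in all KO mice.

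In a few genes KO mouse 3 stood apart from the other KO mice. Without it, *Mmp12*, *Adam8*, *Mmp15*, *Adam10* and *Adamtsl4* were also called lower, and *Mmp19* was called higher. *Mmp12*, the elastase of macrophages, was at 28.0, 20.0 and 26.2 CPM in WT and at 4.71, 7.65 and 32.4 CPM in KO mice. The third KO mouse thus exceeded every WT mouse, and without it *Mmp12* passed as lower (log2 fold change -2.03, adjusted p = 0.00173, against -0.72 and 0.444 with it). *Adam8*, a sheddase of leukocytes, was at 9.59, 8.54 and 11.0 CPM in WT and 1.15, 1.72 and 8.11 CPM in KO mice (-2.79 without KO mouse 3, adjusted p = 0.000580, against -1.39 and 0.154). *Mmp15* was at 117, 160.1 and 129.5 CPM in WT and 67.8, 64.7 and 149.6 CPM in KO mice (-1.05 without KO mouse 3, adjusted p = 0.00237, against -0.53 and 0.255). *Mmp13*, the main interstitial collagenase of rodents, had its highest level of all 6 mice, 6.10 CPM, in KO mouse 3, against 2.03 to 3.57 CPM in WT and 1.27 and 1.32 CPM in the other KO mice. It did not pass with or without this mouse (log2 fold change 0.12, and -1.08 with an adjusted p of 0.0519).

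KO mouse 3 was the highest of the KO mice in 32 of the 52 tested genes, against 36.5% of all genes. Among genes that fell, this was so for 19 of 25 and for 61.0% of all 2651. Of the 9 macrophage markers 4 (44.4%) were highest of the KO mice in this mouse, near the 36.5% of all genes. Among them were *Gpnmb* and *Trem2*, known from lipid-laden macrophages, with *Gpnmb* at 56.4, 43.2 and 75.9 CPM in WT and 4.50, 11.0 and 63.3 CPM in KO mice. *Trem2* was at 4.92, 6.89 and 16.0 CPM in the KO mice, below the 24.3 to 39.5 CPM of WT. The macrophage markers outside these 4 were highest of the KO mice in KO mouse 1 or 2. *Gpnmb* and *Trem2* thus do not stand for the list. All 12 stellate cell markers were highest of the KO mice in KO mouse 3. The part of these cells in the values of KO mouse 3 was not tested. Without it, 30 of the tested genes fell, and 18.3% of all genes.

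**Figure D3:**
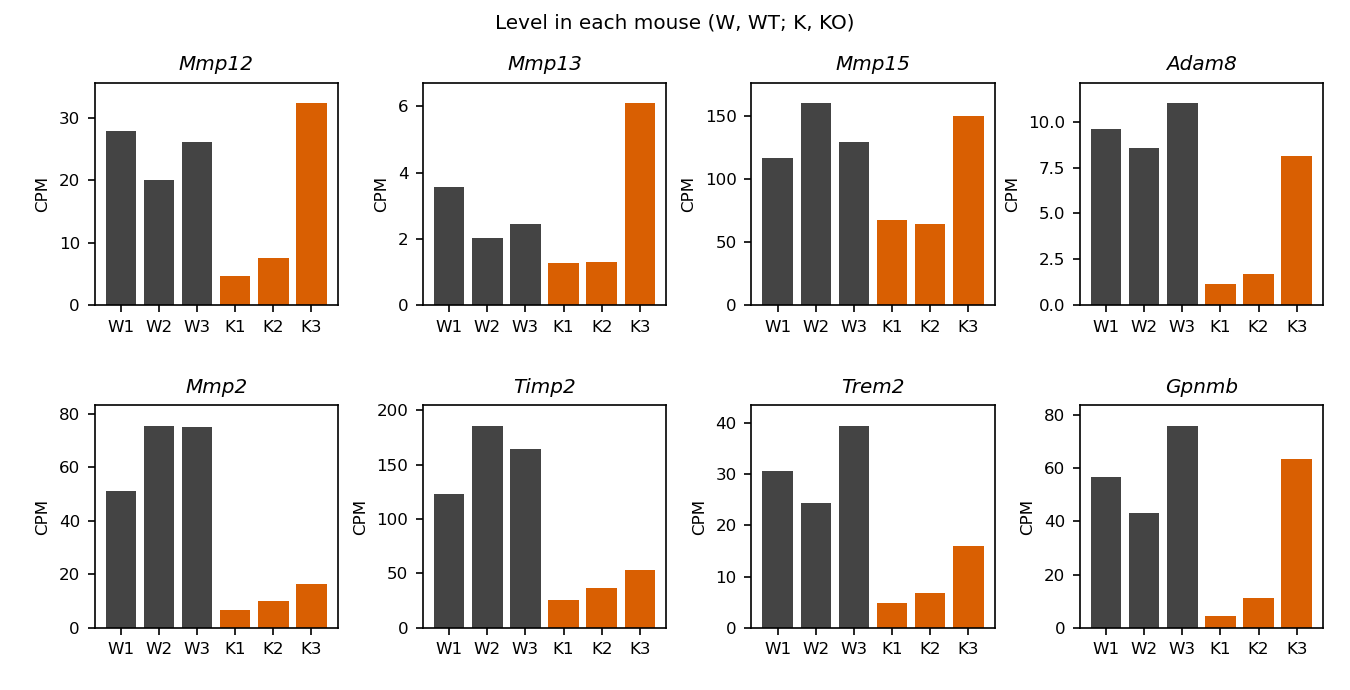
Level in CPM in each mouse (grey bars WT, orange bars KO, axes from 0, 1 bar per mouse). In KO mouse 3, *Mmp12* and *Mmp13* are above every WT mouse, *Mmp15* and *Gpnmb* lie within the WT range and *Adam8* just under it, while all 5 are below WT in KO mice 1 and 2. *Mmp2*, *Timp2* and *Trem2* stay below WT in all 3 KO mice.

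The ADAM family moved least by its median log2 fold change, which was -0.20. Of 14 tested genes 4 fell and 1 rose, against 16.5% and 12.5% of all genes. The summed level was 48.3 ± 1.80 CPM per kb in WT and 41.9 ± 2.80 in KO livers (SD, n = 3 each). The main sheddases did not pass. *Adam10*, which cuts Notch and cadherins, was at 46.2, 33.0 and 36.0 CPM in WT and 26.8, 27.9 and 42.7 CPM in KO mice (log2 fold change -0.24, SE 0.21, adjusted p = 0.421, and -0.51 with 0.0449 without KO mouse 3). *Adam17*, which releases TNF and EGF receptor ligands, was at 25.2, 21.9 and 25.0 CPM in WT and 21.3, 17.7 and 25.2 CPM in KO mice (log2 fold change -0.17, SE 0.15). Their groups overlapped.

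*Adam33* (ENSMUSG00000027318, chr2:131050591-131063814, minus strand), known from fibroblasts and smooth muscle, had the largest fall of the family. It was at 29.9, 52.9 and 35.8 CPM in WT and 3.90, 4.51 and 4.84 CPM in KO mice, an 8.95-fold difference of means (log2 fold change -3.16, SE 0.23, adjusted p = 0.000639). *Adam15*, an ADAM with an integrin-binding motif, was at 22.3, 30.4 and 24.9 CPM in WT and 6.07, 8.15 and 7.99 CPM in KO mice (log2 fold change -1.80, SE 0.18, adjusted p = 0.000943). *Adam19*, a neuregulin sheddase, went from 6.95 ± 0.550 to 3.02 ± 0.843 CPM (SD, n = 3 each, adjusted p = 0.00817). In these genes all KO mice were below all WT mice. *Adam32*, known from testis, had 23, 17 and 32 counts in WT and 1, 0 and 6 counts in KO libraries (adjusted p = 0.0292). It passed the count filter through the WT libraries only. The call was lost without WT mouse 1, 2 or 3 (adjusted p = 0.0731, 0.0767 and 0.106) and without KO mouse 2 (0.0648). *Adam12*, a myofibroblast gene, had no overlap between groups but only 11 to 50 counts and did not pass (log2 fold change -0.88, SE 0.35, adjusted p = 0.0926).

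*Adam9*, a widely expressed sheddase and the most abundant ADAM per kb, rose. It was at 55.9, 47.4 and 54.7 CPM in WT and 64.5, 79.9 and 81.8 CPM in KO mice (log2 fold change 0.52, SE 0.13, adjusted p = 0.0229), and its share of the ADAM sum went from 26.5% ± 1.83 to 43.9% ± 5.78 (SD, n = 3). The call was lost in 7 of 16 alternative fits, among them the 3 that leave out a WT mouse. With ERCC scaling the value was -0.16, which is 0.53 above the median of all genes in that fit. *Adam23*, a member without protease activity known from neurons, had all KO mice above all WT mice but did not pass (12.8 to 24.3 against 6.40 to 12.2 CPM, adjusted p = 0.0568). Its inactive relatives *Adam11* and *Adam22* were highest in KO mouse 1, at 72.7 and 3.35 CPM. In WT mice they were at 41.2 to 56.7 and 1.20 to 1.36 CPM, and without KO mouse 1 *Adam22* passed as lower (log2 fold change -1.42, adjusted p = 0.0251, against 0.15 and 0.893 with it). *Adam1a* and *Adam4*, known from testis, were at most at 1.52 CPM in a mouse and did not pass, and *Adam1a* shares 63.7% of its exon length with *Gm42878*.

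In the ADAMTS family 7 of 13 tested genes fell and 1 rose, against 16.5% and 12.5% of all genes. Their median log2 fold change was -1.04. *Adamts2*, which removes the N-propeptide of fibrillar procollagens, was the most abundant per kb in WT livers, at 63.3, 81.0 and 74.6 CPM, and was at 14.5, 24.9 and 34.8 CPM in KO mice (log2 fold change -1.56, SE 0.28, adjusted p = 0.00640). Its relative *Adamts14* was at 5.39 ± 1.61 CPM in WT and 2.83 ± 1.20 CPM in KO livers and did not pass (SD, n = 3 each, adjusted p = 0.0926). The collagen genes these enzymes act on fell as well, with log2 fold changes of -1.86 for *Col1a1*, -1.66 for *Col1a2* and -1.72 for *Col3a1*.

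Among the proteoglycan-cleaving members *Adamts9*, *Adamts5* and *Adamts15* fell. *Adamts5* was at 14.4, 14.9 and 13.0 CPM in WT and 3.23, 5.06 and 4.72 CPM in KO mice (log2 fold change -1.70, SE 0.20, adjusted p = 0.00137). *Adamts1*, the gene next to it on chromosome 16, was at 15.2, 16.1 and 13.5 CPM in WT and 9.38, 16.6 and 25.2 CPM in KO mice and did not pass (log2 fold change 0.19, SE 0.31). The KO mice thus lay on both sides of WT for *Adamts1* and all below it for *Adamts5*. *Adamts9* was at 12.9, 20.9 and 11.7 CPM in WT and 3.01, 3.24 and 5.39 CPM in KO mice, and *Adamts15* went from 11.6 ± 2.32 to 5.60 ± 1.91 CPM (SD, n = 3 each), while *Adamts4* was at 1.65 ± 0.434 and 1.56 ± 0.564 CPM and did not pass.

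*Adamts10*, a microfibril-associated member, *Adamts7*, which cuts cartilage oligomeric matrix protein, and *Adamts16* fell too. *Adamts10* went from 49.9 ± 2.40 to 24.7 ± 5.63 CPM, *Adamts7* from 13.6 ± 1.07 to 6.98 ± 2.38 CPM and *Adamts16* from 3.89 ± 0.743 to 0.692 ± 0.251 CPM (SD, n = 3 each). All KO mice were below all WT mice in each. *Adamts12* and *Adamts6* were also without overlap but had 4 to 70 counts per library and did not pass (adjusted p = 0.0596 and 0.0689).

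*Adamts13* (ENSMUSG00000014852, chr2:26973416-27009628, plus strand) was the exception of its family. It encodes the protease that trims von Willebrand factor in plasma and is known to be made by stellate cells. It was at 3.72, 3.88 and 3.94 CPM in WT and 7.17, 9.52 and 11.0 CPM in KO mice, a 2.40-fold rise of the mean (log2 fold change 1.26, SE 0.20, adjusted p = 0.00387). The lowest KO mouse was well above the highest WT mouse, and the share of the ADAMTS sum went from 3.08% ± 0.149 to 13.5% ± 1.35 (SD, n = 3). The rise was 1.42 without KO mouse 1, and the call was lost with ERCC scaling alone of the 16 alternatives (log2 fold change 0.64, adjusted p = 0.438, where the median of all genes was -0.69). Its substrate gene *Vwf* did not pass (log2 fold change -0.27, adjusted p = 0.325), and most stellate cell markers went the other way. Of 12 such markers 7 fell, among them *Pdgfra* (-2.10) and *Pdgfrb* (-1.46), 4 did not pass, and *Reln* alone rose (log2 fold change 0.97, adjusted p = 0.0105), although not without TMM scaling or with ERCC scaling.

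ADAMTSL proteins resemble ADAMTS proteins but lack the protease domain and bind to matrix microfibrils. Of 5 genes 4 fell, against 16.5% of all genes. *Adamtsl2* (ENSMUSG00000036040, chr2:27079379-27108981, plus strand), which binds a latent TGF-beta binding protein, was by far the most abundant per kb, and was at 144, 212 and 149.6 CPM in WT and 28.2, 38.9 and 77.1 CPM in KO mice (log2 fold change -1.81, SE 0.36, adjusted p = 0.00966). *Adamtsl1* was at 8.05, 7.68 and 7.10 CPM in WT and 0.934, 1.52 and 1.06 CPM in KO mice (log2 fold change -2.70, SE 0.24, adjusted p = 0.000830). Both were lower in every KO mouse than in any WT mouse. *Adamtsl3* also fell (adjusted p = 0.0219) at 5 to 60 counts per library. *Adamtsl5* passed narrowly (log2 fold change -0.75, adjusted p = 0.0490) and was called in only 7 of 16 alternative fits. *Adamtsl4* did not pass (-0.88, adjusted p = 0.0692), but passed as lower without KO mouse 3 (-1.26, adjusted p = 0.0138).

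**Figure D4:**
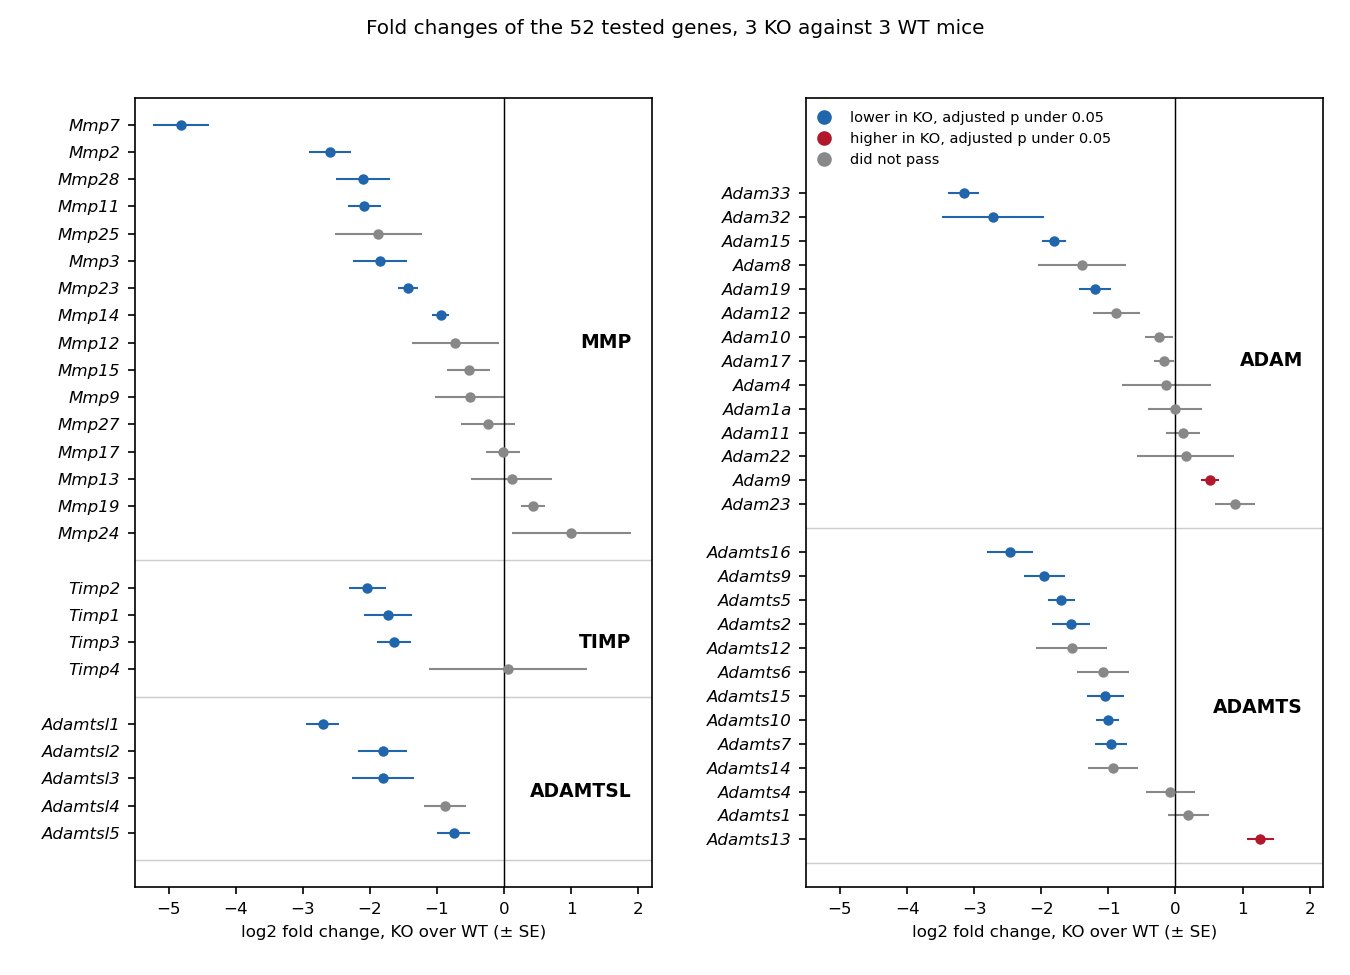
Log2 fold change, KO over WT (points, with SE as lines), of the 52 tested genes by family, from 3 KO and 3 WT mice. Blue genes fell and red genes rose at an adjusted p under 0.05, and grey genes did not pass. Most points lie left of 0, with *Mmp7* at -4.81 farthest left and *Adamts13* at 1.26 farthest right.

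Genes that act with these proteases did not all move with them. The shares of all genes tested, to set beside the counts below, were 16.5% for a fall and 12.5% for a rise. Of 10 activators of pro-MMPs and ADAMs, *Plat*, *Plau* and *Plaur* of the plasminogen system fell (log2 fold changes -2.38, -1.25 and -1.23), and *Hpn*, *Pcsk6* and *Klkb1* rose (0.69, 1.02 and 0.96), although none rose without TMM scaling or with ERCC scaling. *Furin*, the convertase that trims MMP14 and many ADAMs, did not pass (0.46, adjusted p = 0.0510). Of 8 tested partners of ADAM10 and ADAM17, 2 fell (25%), *Rhbdf1* and *Tspan15*. Of 19 genes for shed membrane proteins 6 fell, among them *Cx3cl1* (-2.71) and *Cdh1* (-2.02), and *Met* rose (0.65), although not under these 2 scalings. Of 16 tested matrix and plasma substrates 10 fell, among them the elastic fibre genes *Eln* (-2.78) and *Fbn1* (-2.16) and the collagen genes *Col1a1* (-1.86) and *Col4a1* (-1.31), and *Fn1* and *Cdh2* rose (0.59 and 0.73), again without a rise under these 2 scalings. Of 7 tested other inhibitors *Tfpi2* alone rose (0.88), as did *Bmp1* (0.57), the only astacin protease tested, and neither passed under these 2 scalings. These counts also depended on single mice. Without WT mouse 1, 2 or 3, the activators that fell were 3, 2 and 1, and 1 rose in each fit. Of the 19 shed protein genes 4 fell without any 1 WT mouse, and 3 without KO mouse 2. In the fits without a WT mouse 9.92% to 10.8% of all genes fell.

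Markers of some of the cells known for these genes also differed between the groups. Over all genes tested, 16.5% fell and 12.5% rose. Of 12 stellate cell and myofibroblast markers 7 fell and 1 rose, with sums of 1603 to 1656 CPM in WT and 414 to 1017 CPM in KO livers. Of 7 T cell markers 6 fell (21.6 to 27.5 against 5.82 to 7.81 CPM in sum). Of 9 macrophage markers 4 fell and 3 rose (*Clec4f*, *Vsig4* and *Timd4*, genes of resident Kupffer cells), and the sums overlapped. Of 4 tested neutrophil markers 1 fell, of 6 B cell markers 1 fell (16.7%, near the share of all genes), and of 5 mesothelial markers none passed. Of 7 endothelial and 7 hepatocyte markers 2 each rose, with endothelial and hepatocyte medians of 0.40 and 0.56. With ERCC scaling these medians were -0.27 and -0.26, where the median of all genes moved from 0.03 to -0.69. No listed marker was at 0 in all 6 mice. The part of these cells in the changes of the proteases was not tested.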

How the data were processed

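Liver total RNA of 6 mice was sequenced by the authors in paired-end mode (NEBNext Ultra libraries, Illumina HiSeq). They trimmed reads with Trimmomatic 0.36, aligned them with STAR 2.5.2b to GRCm38 with the ERCC sequences, and, per the submitters' processing notes, counted with featureCounts of Subread 1.5.2. The deposited values are raw counts per gene ID without normalization, and strand use is not given in the sources used here. The 92 ERCC rows entered neither library sizes nor tests. Symbols, positions and exon lengths came from GENCODE M21 (GRCm38), and 345 IDs had no symbol. Reads of overlapping genes could be split by the counting.

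The members, gene lists and tests were chosen with earlier results of these data known. The brain and placenta lists and the bile duct sum without *Spp1* were chosen after seeing the values. So were the sums, ratios and shares without KO mouse 1. edgeR 4.0.16 (R 4.3.3) was used with filterByExpr, TMM scaling and the robust quasi-likelihood test, two-sided, over 16089 genes, without a replicate block. All adjusted p-values are from this test with Benjamini-Hochberg adjustment unless another tool is named. The study's methods used limma-voom, which was run as an alternative (limma 3.58.1), with DESeq2 1.42.0, other scalings and filters, a replicate block and leaving out each mouse. CPM use TMM-scaled library sizes. A count of 3, the floor, was 0.0734 to 0.152 CPM and covers counting error only. The code was tested on simulated counts. The labels do not say whether the numbered samples were separate animals. They were taken as separate mice, and otherwise p-values measure only technical spread. Genes named are those that passed, all TIMP genes, the 3 most abundant per kb of each family and a set list of known members. *Mmp17*, *Mmp24*, *Mmp25*, *Mmp27*, *Adam1a*, *Adam2*, *Adam4*, *Adam8*, *Adam22*, *Adam23*, *Adamts4*, *Adamts6*, *Adamts8*, *Adamts12* and *Adamts14*, and the neighbours of overlapping genes, were named after their values were seen. Protein sequences were not used here. The values of 1 gene counted among the substrates are not reported here.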

Additional observations from a re-analysis of the deposited data

How the results depend on the processing

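The count of genes that fell ranged from 19 to 31 over 16 alternatives, and 18 of the 25 were called in every alternative that tested them. Leaving out each mouse gave 19 (without WT mouse 3) to 30 (without KO mouse 3), while the share of all genes that fell went from 9.92% to 18.3% in the same fits (9.92% to 10.8% without a WT mouse, 16.5% with all mice). DESeq2 called 28 lower and 3 higher (*Adam23* added, so 2 ADAM genes higher), and limma-voom 27 and 2. Of all genes, 17.9% fell with DESeq2 and 17.4% with limma-voom. Without TMM scaling 31 fell and 1 rose (0 ADAM), where 30.6% of all genes fell, and with ERCC scaling 29 fell and 0 rose (0 ADAM and 0 ADAMTS), where 17.1% of all genes fell. Among ADAMTSL genes 2 fell when no filter beyond 1 count was used, and 2 to 5 when each mouse was left out (2 without any of the WT mice or without KO mouse 2). The genes that rose were 1 to 3 when each mouse was left out, with 0 to 1 ADAM genes (0 without any WT mouse) and 0 to 1 MMP genes (*Mmp19*, without KO mouse 3). Leaving out any WT mouse or KO mouse 2 lost *Adam32*, *Adamts7*, *Adamtsl3* and *Adamtsl5*, the last also without KO mouse 1. *Adamts15* was lost without WT mouse 2, WT mouse 3 or KO mouse 2.

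Same-numbered mice did not deviate together (correlations -0.0486, 0.00330 and -0.0658), so the numbers were not taken as pairs. With the replicate block 26 fell and 2 rose, with 24 of the 25 kept, where 13.6% of all genes fell. In this fit *Adam9* was at an adjusted p of 0.0520 and *Adam23* at 0.0128.

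All reversed values belong to genes that did not pass, except *Adam9* with ERCC scaling (-0.16). With limma-voom, *Timp4* was -1.45, *Mmp13* -0.24, *Adam22* -0.48 and *Adam1a* 0.074, and with DESeq2 *Adam1a* was 0.015. Without TMM, *Timp4* was -0.43, *Mmp13* -0.22, *Mmp19* -0.0106, *Adam11* -0.34, *Adam22* -0.31 and *Adamts1* -0.19. With ERCC scaling, *Timp4* was -1.11, *Mmp13* -0.24, *Mmp19* -0.36, *Mmp24* -0.0522, *Adam11* -0.75, *Adam22* -0.90 and *Adamts1* -0.31. With upper-quartile scaling *Timp4* was -0.0238, and with the replicate block *Timp4* was -0.74, *Mmp13* -0.23, *Adam22* -0.42 and *Adam1a* 0.10. When each mouse was left out in turn, values ranged from -0.22 to 0.27 for *Adam11*, -0.29 to 0.44 for *Adam1a*, -1.42 to 0.60 for *Adam22*, -0.95 to 0.29 for *Adam4*, -0.23 to 0.49 for *Adamts1*, -0.33 to 0.17 for *Adamts4*, -1.08 to 0.48 for *Mmp13*, -0.15 to 0.12 for *Mmp17*, -0.86 to 1.52 for *Mmp24*, -0.75 to 0.028 for *Mmp27*, -0.78 to 0.024 for *Mmp9* and -3.45 to 0.90 for *Timp4*. The cause was not tested.

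Depth limits genes with few counts, such as *Timp4*, *Mmp25*, *Adam32*, *Adamts8* and *Adam2*. With 3 mice in each group, a p that misses the threshold does not show that levels were alike.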
